A study of Mus musculus with 6 samples.

Results

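The natriuretic peptide genes Nppa and Nppb, the cardiac myosin heavy chain genes Myh6 and Myh7, the processing enzyme gene Corin and the receptor genes Npr1 and Npr3 were followed in infarcted mouse hearts. These 7 genes were chosen by symbol, and each had 1 feature among the 22206 features of the Clariom S mouse array. RNA came from whole hearts of 6 male mice, 1 array per heart, and the left coronary artery had been ligated in all of them at 8 weeks of age. There were 3 groups of 2 hearts each. The groups 8W-Ctrl and 12W-Ctrl carried Tcf21iCre/Tomato, a Cre driven from the fibroblast gene Tcf21 with a Tomato reporter, and were taken 2 and 3 months after infarction. The group 12W-TTg carried Tcf21iCre/Tomato/MGTH2A and was taken at 3 months. MGTH2A is known as a transgene that joins Mef2c, Gata4, Tbx5 and Hand2, all of them transcription factors of the developing heart, and that the Cre switches on in the Tcf21 lineage. The controls also carried the Cre and the reporter. Mice with an ejection fraction above 45% at 2 days after surgery were removed from the study, and the whole heart pools scar, remaining myocardium and atria. When the Cre was activated is not given in the sources used here.

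Atrial natriuretic peptide (Nppa) and brain natriuretic peptide (Nppb) are hormones that cardiac myocytes secrete when the chamber wall is stretched. Corin, a protease on the myocyte surface, cuts the Nppa precursor to its active form. Npr1 is the receptor that answers both peptides with cyclic GMP, whereas Npr3 takes the peptides up and clears them. Myh6 encodes the fast alpha myosin heavy chain of the adult mouse ventricle and Myh7 the slow beta chain of the fetal ventricle, and a rise of Myh7, Nppa and Nppb is a known mark of the loaded or failing ventricle. Nppb and Nppa are neighbours on mouse chromosome 4, and Myh6 and Myh7 are neighbours on chromosome 14.

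The sequences before the starts of the 4 peptide and myosin genes are shown because the factors of the transgene belong to families that bind such promoters. They are RefSeq windows of build GRCm38.p6, from 250 bases before to 50 bases after the annotated start, written 5′ to 3′ on the gene's strand. Capitals mark matches on either strand to 6 motifs. These were a GATA motif (AGATAA, with T also allowed as the first base and G as the last), a MEF2 motif (CTA, any 4 bases, then TAG), a T-box motif (AGGTGT), the E-box CATCTG, the M-CAT motif of TEAD factors (CATTCC) and the TATA box (TATAAA). No MEF2 or E-box match lies in these windows.
Nppa, chr4:148000472-148000771, plus strand: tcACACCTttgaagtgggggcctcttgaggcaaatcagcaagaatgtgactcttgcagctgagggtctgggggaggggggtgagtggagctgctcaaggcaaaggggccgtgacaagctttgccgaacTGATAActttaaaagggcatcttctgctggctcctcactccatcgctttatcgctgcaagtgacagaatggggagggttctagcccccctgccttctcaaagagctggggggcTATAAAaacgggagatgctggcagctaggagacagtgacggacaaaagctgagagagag
Nppb, chr4:147985650-147985949, plus strand: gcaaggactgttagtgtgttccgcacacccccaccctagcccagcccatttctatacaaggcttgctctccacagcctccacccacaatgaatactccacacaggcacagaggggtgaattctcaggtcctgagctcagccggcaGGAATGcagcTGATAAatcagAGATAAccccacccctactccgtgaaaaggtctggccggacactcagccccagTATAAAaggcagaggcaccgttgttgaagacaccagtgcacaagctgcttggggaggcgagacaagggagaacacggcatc
Myh6, chr14:54966558-54966857, minus strand: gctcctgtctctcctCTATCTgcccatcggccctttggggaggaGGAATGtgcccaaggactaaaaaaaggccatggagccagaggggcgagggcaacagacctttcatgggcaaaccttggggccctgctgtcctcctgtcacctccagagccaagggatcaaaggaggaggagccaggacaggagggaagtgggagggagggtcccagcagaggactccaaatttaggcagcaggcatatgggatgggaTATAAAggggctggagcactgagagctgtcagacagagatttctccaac
Myh7, chr14:54994577-54994876, minus strand: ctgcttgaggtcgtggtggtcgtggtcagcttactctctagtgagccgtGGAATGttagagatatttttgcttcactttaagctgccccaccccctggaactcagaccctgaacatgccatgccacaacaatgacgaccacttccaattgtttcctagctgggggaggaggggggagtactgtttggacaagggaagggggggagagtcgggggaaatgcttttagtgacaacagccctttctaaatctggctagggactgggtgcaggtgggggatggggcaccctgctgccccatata

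The Nppa window holds 1 GATA match, 122 bases before the start, and 1 T-box match, 248 bases before it. The Nppb window holds 2 GATA matches, 95 and 84 bases before the start, next to an M-CAT match at 105 bases. The Myh6 window holds 1 GATA match and 1 M-CAT match, 235 and 206 bases before the start. The Myh7 window, the outer of 2 annotated for that gene, holds an M-CAT match 201 bases before the start. A TATA box match lies 9 bases before the annotated start in the Nppa window and 31 bases before it in the Nppb window. In the Myh6 window it begins at base 2, counting the annotated start as base 1, and so lies after that start. Over all 32851 promoter windows of this length, a GATA match occurs in 29.8%, a T-box match in 13.7%, an M-CAT match in 14.7%, a TATA box in 13.6%, the E-box in 17.2% and the MEF2 motif in 3.69%. A match is a description of letters, and binding was not measured in these hearts.

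Signals are the authors' deposited log2 values, so a difference of 1 is a 2-fold difference in signal. The level of one gene is not compared with that of another, because features differ in their probes. Differences between groups are given ± SE from a limma fit to all 6 arrays and all features, with n = 2 hearts per group, and adjusted p-values are Benjamini-Hochberg values over all 22206 features. The 3 comparisons share groups: 12W-Ctrl enters the comparison of TTg with its control and that of the 2 control times, so a high 12W-Ctrl value moves both. Replicates correlated across features at 0.984 to 0.989. The 14 cardiomyocyte markers had array means between 18.22 and 18.53. Several of them read 19 or more on all 6 arrays, such as Mb at 19.93 and Pln at 19.89 on each. That is near the top of the scale described below, so these means cannot show that myocyte content was equal. Ryr2, the marker with the widest range, ran from 14.18 to 16.49. The 8W-Ctrl replicate 1 array carried signal of skeletal muscle and fat, with Myh2 at 10.51, Myh8 at 9.18 and Myh1 at 7.59 against 3.03 to 4.34 on the other arrays. The 12W-Ctrl replicate 2 array was low in the atrial markers Myl7 (3.45), Myl4 (5.90) and Sln (5.53). Kcnk3 at 9.91 and Gja5 at 6.35 were not low there, so the 9 measured atrial markers (of 10 listed) were split. Where a difference rests on one of these hearts, its value without that heart is given beside it.

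The deposited scale ended at 19.93. Of the 37 features with a mean of 19 to 20, 23 (62.2%) had the same value to 2 decimals on at least 4 of the 6 arrays, and 15 had it on all 6. Among the 39 features with a mean of 18 to 19 there was 1 such feature (2.56%), and in the whole table there were 27 (0.122%). The median within-group SD was 0.03 for features of 19 to 20 and 0.20 to 0.33 for those below. The zone near this top, where features repeat 1 value across arrays, is called the ceiling here. Values there are called saturated as a reading of these repeats, since what limits the signal was not tested. Nppa, at 19.86 on 4 arrays and 19.93 on 1, is read as lying on the ceiling. Myh6 lay at 19 or more on 5 of 6 arrays with a different value on each array.

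**Figure D1:**
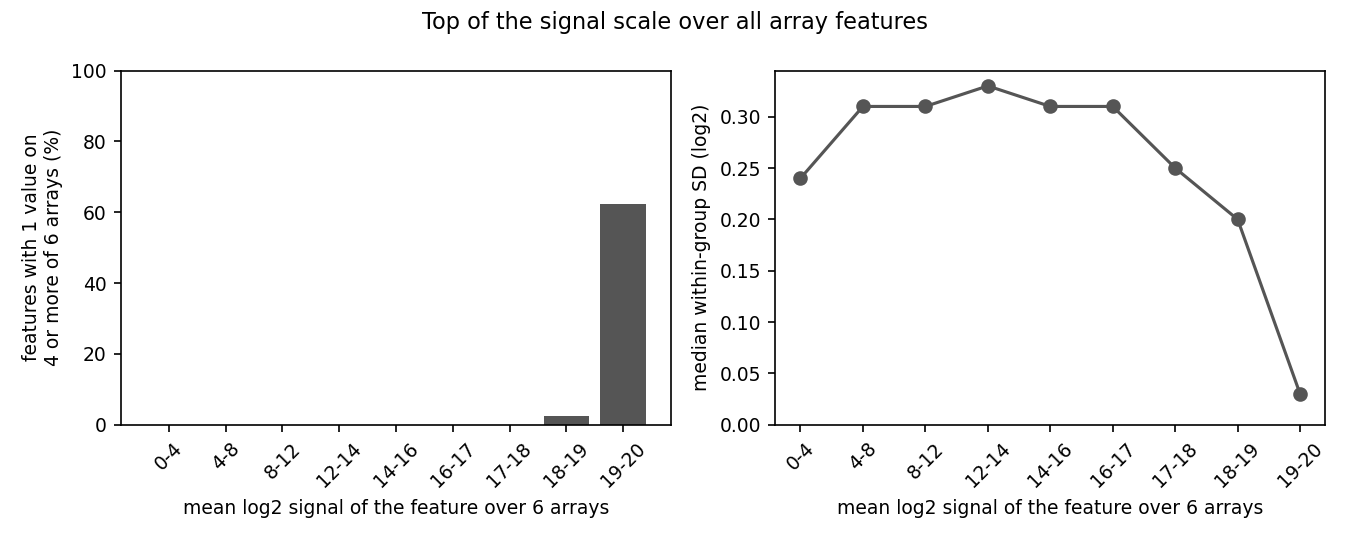
Left, percentage of array features with 1 identical value on 4 or more of 6 arrays, by mean log2 signal. Right, median within-group SD (log2) by the same bins. Equal values are frequent (62.2%) in features with a mean of 19 to 20 and make up at most 2.56% below, while the SD drops to 0.03.

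Nppa read 19.86 and 19.86 in 8W-Ctrl, 19.93 and 19.86 in 12W-Ctrl, and 19.86 and 18.92 in 12W-TTg. The value 19.86 was shared by 4 arrays to the second decimal, and 5 of 6 arrays were at or above 19. TTg replicate 2 was the 1 heart whose Nppa signal left the ceiling, 0.94 below the other TTg heart. The limma difference of 12W-TTg from 12W-Ctrl was −0.50 ± 0.33 (adjusted p = 0.781), and it is not read as a fold because 3 of the 4 values are saturated. The Nppa difference between the control times, 0.03 ± 0.33 (adjusted p = 0.988 in limma), compares saturated values only. Nppa is also a marker of atrial myocytes. Its signal in 12W-Ctrl replicate 2, the heart low in Myl7, Myl4 and Sln, was 19.86. That value is on the ceiling, where a lower amount of its RNA may not show.

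Nppb, whose feature lies below the ceiling, read 16.14 and 14.29 in 8W-Ctrl, 17.53 and 15.71 in 12W-Ctrl, and 16.04 and 12.44 in 12W-TTg. The highest heart was a 12W-Ctrl heart and the lowest a TTg heart, but the ranges of the 3 groups overlapped in every comparison. Hearts of the same group differed by 3.61-fold in 8W-Ctrl, 3.53-fold in 12W-Ctrl and 12.1-fold in 12W-TTg. The mean was lower in 12W-TTg than in 12W-Ctrl by a log2 difference of −2.38 ± 1.20 (95% interval −5.20 to 0.44, limma adjusted p = 0.703). That interval spans both no difference and a loss larger than the one observed. Without TTg replicate 2 the difference was −0.58, and without TTg replicate 1 it was −4.18. It was −1.47 without 12W-Ctrl replicate 1.

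Between the control times the Nppb mean was higher at 3 months by 1.40 ± 1.20 (95% interval −1.41 to 4.22, limma adjusted p = 0.805). The value was 0.48 without 8W-Ctrl replicate 2, 0.50 without 12W-Ctrl replicate 1 and 2.33 without 8W-Ctrl replicate 1. From 8W-Ctrl to 12W-TTg the difference was −0.97 ± 1.20 (limma adjusted p = 0.839). It turned to 0.83 without TTg replicate 2 and was −0.05 without 8W-Ctrl replicate 1. In each group the heart with the higher Nppb signal also had the higher mean of the 11 measured fibroblast markers (of 12 listed). Those means were 12.10 and 10.22 in 8W-Ctrl, 12.41 and 10.97 in 12W-Ctrl, and 10.50 and 8.78 in 12W-TTg. That heart was replicate 1 in every group, and the macrophage, endocardial and endothelial marker means had the same order. The cardiomyocyte marker means had the reverse order. All 11 fibroblast markers had a lower mean in 12W-TTg than in 12W-Ctrl. The same held for all 9 measured macrophage and all 6 measured epicardial markers. The part of these lists in the Nppb result was not tested. In bulk tissue, fewer cells of a type and less RNA per cell cannot be told apart.

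**Figure D2:**
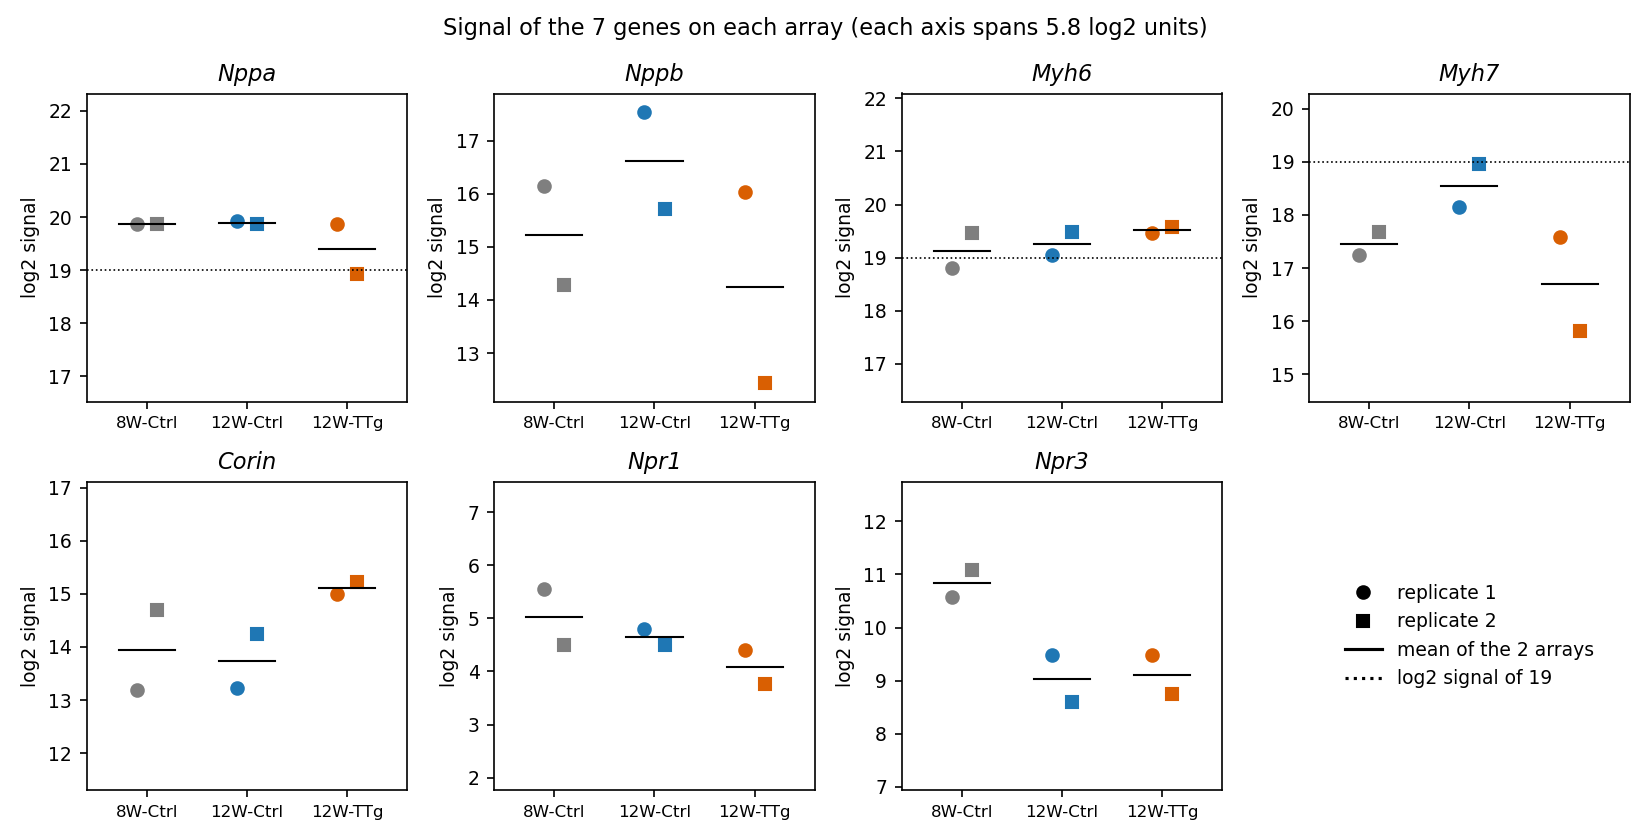
Log2 signal (y axis) of the 7 genes in the 6 hearts by group (x axis), with circles for replicate 1, squares for replicate 2, a line at the mean of the 2 arrays and a dotted line at 19. Nppa sits at 19.86 to 19.93 in 5 hearts, Nppb spans 12.44 to 17.53, and both Npr3 values of 8W-Ctrl lie above all values at 3 months.

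Corin read 13.19 and 14.70 in 8W-Ctrl, 13.23 and 14.24 in 12W-Ctrl, and 14.99 and 15.22 in 12W-TTg. Both TTg hearts were above all 4 control hearts, while the control groups overlapped each other. The mean in 12W-TTg was higher than in 12W-Ctrl by 1.37 ± 0.53, a 2.58-fold difference (95% interval 0.12 to 2.62, limma adjusted p = 0.661). Against 8W-Ctrl it was higher by 1.16 ± 0.53 (95% interval −0.09 to 2.41, limma adjusted p = 0.548). Neither passed the threshold of an adjusted p under 0.05. The first difference was 0.86 without 12W-Ctrl replicate 1, and the second was 0.40 without 8W-Ctrl replicate 1 and 1.92 without 8W-Ctrl replicate 2. The 2 control times differed by −0.21 ± 0.53 (limma adjusted p = 0.949), a sign that turned without 8W-Ctrl replicate 2 (0.54) or 12W-Ctrl replicate 1 (0.30). Within each group the heart with more Corin signal was the heart with less Nppb signal, over pairs that each hold only 2 hearts.

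Npr3, the clearance receptor, had values of 10.58 and 11.09 in 8W-Ctrl, 9.49 and 8.59 in 12W-Ctrl, and 9.48 and 8.75 in 12W-TTg. Both hearts taken at 2 months were above all 4 hearts taken at 3 months. The 12W-Ctrl mean was lower than the 8W-Ctrl mean by a log2 difference of −1.80 ± 0.40, a 3.47-fold difference (95% interval −2.74 to −0.85). In limma its unadjusted p was 0.00269 and its adjusted p 0.406, so it did not pass over all features. The 12W-TTg mean was below that of 8W-Ctrl by −1.72 ± 0.40 (95% interval −2.66 to −0.78, limma adjusted p = 0.340). Between 12W-TTg and 12W-Ctrl the difference was 0.08 ± 0.40 (95% interval −0.87 to 1.02, limma adjusted p = 0.986), an interval that leaves room for a change of nearly 2-fold either way. Over the single hearts left out, the difference of the control times ran from −2.24 to −1.34.

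Npr3 is expressed by the endocardium and by fat as well as by other cells of the heart. The 8 endocardial markers had means of 8.86 and 7.41 in 8W-Ctrl, 8.01 and 6.83 in 12W-Ctrl, and 7.12 and 6.60 in 12W-TTg, and 7 of 8 had a lower mean in 12W-Ctrl than in 8W-Ctrl. That order rests on 8W-Ctrl replicate 1, since the 7.41 of 8W-Ctrl replicate 2 lay between the 12W-Ctrl hearts. In 8W-Ctrl replicate 2, Nfatc1, Plvap, Cytl1 and Nrg1 were below their 12W-Ctrl means, and Tmem108, Hapln1, Vwf and Cgnl1 above. The array means over the 9 measured endothelial markers (of 10 listed) were 12.32 and 11.88 in 8W-Ctrl, 12.34 and 11.96 in 12W-Ctrl, and 12.29 and 11.76 in 12W-TTg. The single markers were split, with 5 higher and 4 lower in 12W-Ctrl than in 8W-Ctrl. The part of the endocardial markers in the Npr3 difference was not tested. The 5 measured adipocyte markers had a mean of 6.72 in 8W-Ctrl replicate 1 and 3.37 to 4.05 elsewhere, and without that heart the Npr3 difference between the control times was −2.05.

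Npr1, the signalling receptor, read 5.56 and 4.49 in 8W-Ctrl, 4.80 and 4.49 in 12W-Ctrl, and 4.41 and 3.77 in 12W-TTg. Features with a mean under 3.65, the 30th percentile of feature means, are called dim, and the Npr1 mean of 4.59 was above that limit. Both TTg hearts were below the 4 control hearts. The mean differed from 12W-Ctrl by −0.56 ± 0.40 (limma adjusted p = 0.807), or by −0.23 without TTg replicate 2, and from 8W-Ctrl by −0.94 ± 0.40 (limma adjusted p = 0.521). Without 8W-Ctrl replicate 1, the heart with fat markers and the highest Npr1 value, the latter difference was −0.40. That between the control times, −0.38 ± 0.40 (limma adjusted p = 0.844), was 0.15 without the same heart.

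Myh7 read 17.25 and 17.67 in 8W-Ctrl, 18.15 and 18.95 in 12W-Ctrl, and 17.58 and 15.82 in 12W-TTg. Both 12W-Ctrl hearts were above the other 4, and TTg replicate 1 lay between the 2 hearts of 8W-Ctrl. The mean in 12W-TTg was below that in 12W-Ctrl by −1.85 ± 0.57, a 3.61-fold difference (95% interval −3.19 to −0.51, limma unadjusted p = 0.0135, adjusted p = 0.661). Without TTg replicate 2 it was −0.97, and without TTg replicate 1 it was −2.73. From 2 to 3 months in controls the mean was higher by 1.09 ± 0.57, a 2.13-fold difference (95% interval −0.25 to 2.43, limma adjusted p = 0.681). It was 0.69 without 12W-Ctrl replicate 2. Between 12W-TTg and 8W-Ctrl the difference was −0.76 ± 0.57 (limma adjusted p = 0.720), and it turned to 0.12 without TTg replicate 2. Slow skeletal fibres also express Myh7, and the part of the skeletal muscle genes of 8W-Ctrl replicate 1 in its Myh7 signal was not tested. Without that heart the difference between the control times was 0.88.

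Myh6 was steadier, at 18.80 and 19.47 in 8W-Ctrl, 19.05 and 19.48 in 12W-Ctrl, and 19.46 and 19.58 in 12W-TTg. The groups overlapped in every comparison, and 5 of the 6 values were at or above 19, where differences can be compressed. Its differences were 0.25 ± 0.30 for 12W-TTg against 12W-Ctrl, 0.13 ± 0.30 between the control times and 0.39 ± 0.30 for 12W-TTg against 8W-Ctrl (limma adjusted p = 0.894, 0.944 and 0.738). The difference between the control times turned to −0.21 without 8W-Ctrl replicate 1, and that of 12W-TTg from 8W-Ctrl was 0.05 without it. The difference of 12W-TTg from 12W-Ctrl was 0.04 without 12W-Ctrl replicate 1. The coding sequences of Myh6 and Myh7 are much alike, and whether the probes of their features tell them apart was not tested.

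The log2 Myh7 signal minus the log2 Myh6 signal of the same heart follows the isoform balance from heart to heart. Its zero has no meaning, since it sets 2 features side by side, so only its changes are read. It was −1.55 and −1.80 in 8W-Ctrl, −0.90 and −0.53 in 12W-Ctrl, and −1.88 and −3.76 in 12W-TTg. The 3 groups did not overlap, with both 12W-Ctrl hearts highest, both 8W-Ctrl hearts between and both TTg hearts lowest. TTg replicate 1 lay close to 8W-Ctrl replicate 2 and far from the other TTg heart. From the lowest to the highest heart the balance moved by 3.23. Since Myh6 was at 19 or more in 5 of 6 hearts, its part of the balance can be compressed, and the balance is given in log2 units and not as a fold. The group mean was −1.67 ± 0.18 (SD, n = 2) in 8W-Ctrl, −0.72 ± 0.26 in 12W-Ctrl and −2.82 ± 1.33 in 12W-TTg.

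In the comparison of 12W-TTg with 12W-Ctrl this balance was lower by −2.10 ± 0.96 (SE from the 2 groups). From 8W-Ctrl to 12W-Ctrl it was higher by 0.96 ± 0.22. From 8W-Ctrl to 12W-TTg it was lower by −1.15 ± 0.95. An exact two-sided permutation test gave p = 0.333 in each, which is the smallest p that 2 against 2 hearts allow, so this test cannot pass. With single hearts left out the 3 differences ran from −3.04 to −1.17, from 0.77 to 1.14 and from −2.08 to −0.21. The first was −1.17 without TTg replicate 2, and the third was −0.21 without it. Over the same hearts Myh7 spanned 15.82 to 18.95 and Myh6 18.80 to 19.58.

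**Figure D3:**
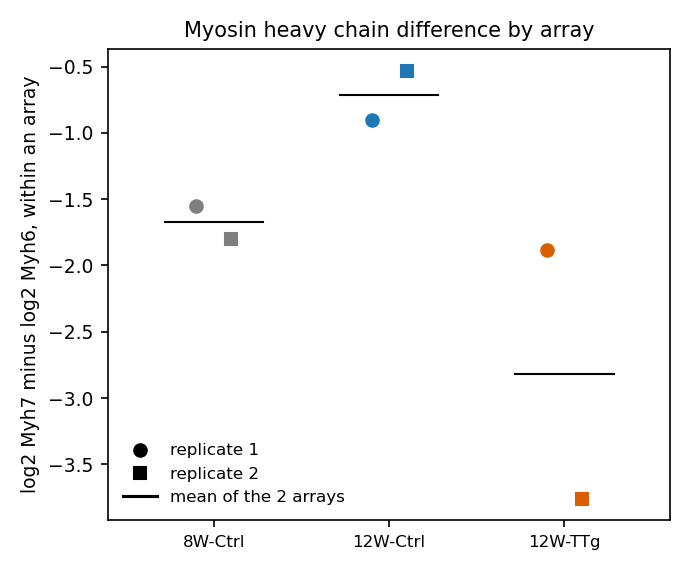
Log2 Myh7 minus log2 Myh6 (y axis) in each heart by group (x axis), with circles for replicate 1, squares for replicate 2 and a line at the mean. The 12W-Ctrl hearts lie at −0.90 and −0.53, the 8W-Ctrl hearts at −1.55 and −1.80, and the TTg hearts at −1.88 and −3.76.

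Counted together for 12W-TTg against 12W-Ctrl, 0 of the 7 genes passed the adjusted threshold, where 0.00450% of all features did. At an unadjusted p under 0.05 in limma there were 2 of 7, Myh7 and Corin, against 7.47% of all features. Groups did not overlap for 3 of 7, Myh7, Corin and Npr1, against 38.4% of all features. Of the 7 means 3 were higher and 4 lower, with a median of −0.50 where all features had 0.01. By the size of the difference Nppb exceeded 99.8% of features, Myh7 99.4% and Corin 98.4%, whereas by p Nppb stood behind 12.2% of features.

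For 12W-Ctrl against 8W-Ctrl, 0 of 7 passed, against 0.00450% of features, and Npr3 was the 1 gene with an unadjusted p under 0.05 in limma, against 8.00%. Groups did not overlap for 2 of 7, Npr3 and Myh7, where 35.7% of features did not overlap. Npr3 was the 1 that was lower, against 17.4% of features lower without overlap. For 12W-TTg against 8W-Ctrl, 0 of 7 passed and 0 of all 22206 features did (0%), with 2156 features at an unadjusted p under 0.05 in limma. Npr3 was the 1 gene of the 7 among the latter, against 9.71% of features. Groups did not overlap for Corin, Npr1 and Npr3, 3 of 7, against 40.1% of features, and 2 of these were lower, against 18.9%. The medians of the 7 differences were 0.03 and −0.76 in these 2 comparisons, and those of all features 0.01 and 0.02. Alternatives to the limma settings called none of the 7 genes in any comparison.

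**Figure D4:**
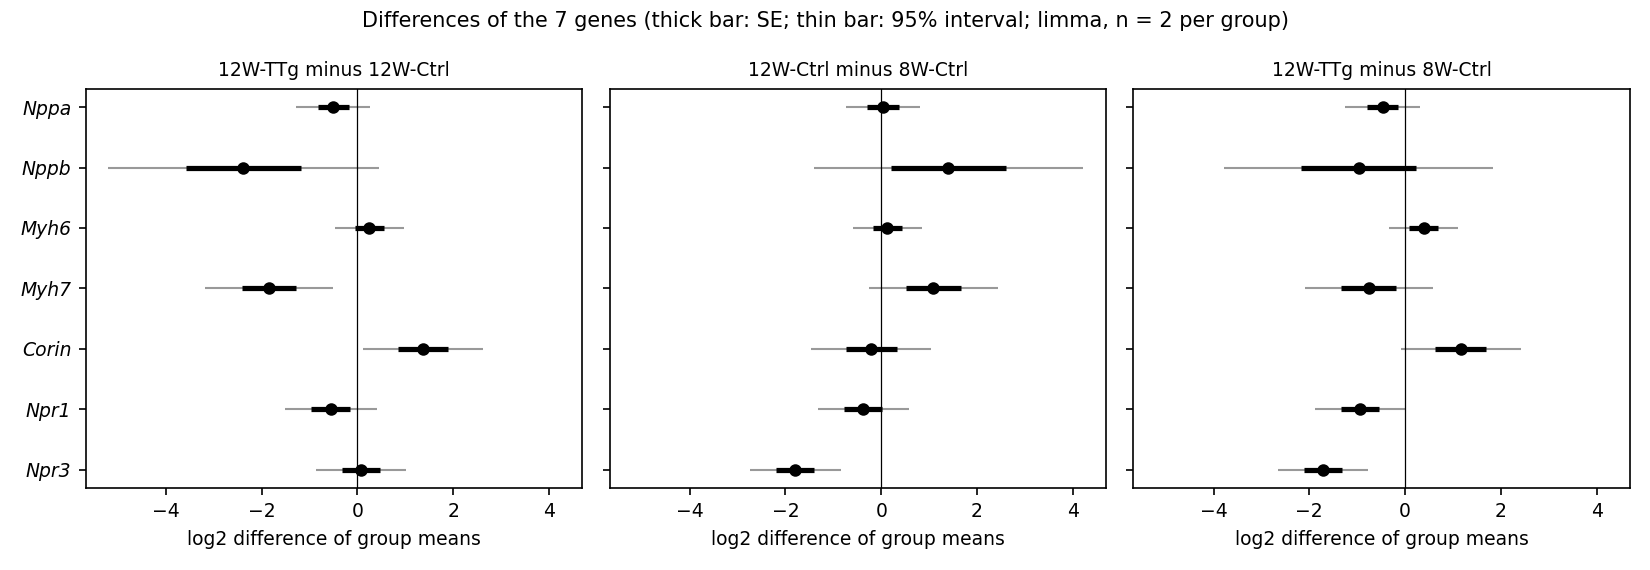
Log2 differences of group means (x axis) for the 7 genes (y axis) in the 3 comparisons, with thick bars for the SE and thin bars for the 95% interval from limma, n = 2 per group. Intervals that leave out 0 belong to Myh7 and Corin in the first panel and to Npr3 in the second and the third, and the Nppa points compare mostly saturated values.

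The other genes of the peptide pathway were taken from a list of 16, of which 15 were measured. None passed in limma in any comparison, in either direction. Unadjusted p was under 0.05 for 3 of 15 in 12W-TTg against 12W-Ctrl (7.47% of all features), 2 of 15 between the control times (8.00%) and 5 of 15 in 12W-TTg against 8W-Ctrl (9.71%). The medians were 0.06, −0.04 and −0.08, close to the 0.01, 0.01 and 0.02 of all features. The largest difference from 12W-Ctrl was that of Ide, a protease that degrades insulin and also natriuretic peptides. Ide read 12.34 and 13.64 in 12W-TTg against 11.58 and 11.73 in 12W-Ctrl, a difference of 1.34 ± 0.42 (limma adjusted p = 0.661). The 2 TTg hearts lay 2.46-fold apart. From 8W-Ctrl, at 11.36 and 11.70, Ide in 12W-TTg differed by 1.46 ± 0.42 (limma adjusted p = 0.391), also the largest of the list. Mme, the protease neprilysin that degrades the peptides, read 7.48 and 7.43 in 12W-TTg, 5.82 and 6.84 in 12W-Ctrl and 6.95 and 7.64 in 8W-Ctrl. It differed by 1.12 ± 0.39 between 12W-TTg and 12W-Ctrl and by −0.96 ± 0.39 between the control times (limma adjusted p = 0.661 and 0.608).

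Of the cyclic GMP genes, the phosphodiesterase gene Pde9a differed by −0.83 ± 0.36 between 12W-TTg and 12W-Ctrl (limma adjusted p = 0.666). Gucy1b1, a subunit of the soluble guanylate cyclase that answers nitric oxide, differed by −0.82 ± 0.40 between the control times (limma adjusted p = 0.663). It read 9.97 and 8.78 in 8W-Ctrl against 8.55 and 8.56 in 12W-Ctrl, and 8W-Ctrl replicate 1 lay furthest from 12W-Ctrl. The phosphodiesterase gene Pde2a was higher in 12W-TTg than in 8W-Ctrl by 1.16 ± 0.30 (limma adjusted p = 0.351), at 9.81 and 9.80 against 8.92 and 8.38. Furin, a protease of the secretory pathway that cuts the Nppb precursor, differed by 0.87 ± 0.35 between the control times (limma adjusted p = 0.602). Its values were 7.21 and 8.14 in 8W-Ctrl against 8.77 and 8.33 in 12W-Ctrl, again with 8W-Ctrl replicate 1 furthest away. Pcsk6, the protease that activates corin, read 9.29 and 9.81 in 12W-TTg and 10.85 and 10.44 in 8W-Ctrl, a difference of −1.10 ± 0.34 (limma adjusted p = 0.409).

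Among 19 other myosin genes and myosin partners, all measured, none passed in limma in any comparison, and the medians were 0.00, −0.12 and −0.44. Between 12W-TTg and 12W-Ctrl the nonmuscle heavy chain Myh9 differed by −1.10 ± 0.39 and the nonmuscle and smooth muscle light chain Myl6 by −1.02 ± 0.37 (limma adjusted p = 0.661 for both). Mybphl, an atrial relative of myosin-binding protein C, differed by 1.46 ± 0.92 (limma adjusted p = 0.778), and its lowest value, 2.69, was in 12W-Ctrl replicate 2. Without that heart, which is low in the atrial markers Myl7, Myl4 and Sln, its difference was −0.18. The largest differences from 8W-Ctrl were those of the skeletal chains Myh2, Myh8 and Myh1. Their values were above 7 in 8W-Ctrl replicate 1 alone, as given above. Without that heart the differences of Myh2, Myh8 and Myh1 between the control times were 0.22, 0.12 and −0.47, in place of −3.36, −2.68 and −2.28. Those of 12W-TTg from 8W-Ctrl were 0.08, −0.05 and −0.21, in place of −3.50, −2.86 and −2.02. The ventricular light chain Myl2 read 19.93 on all 6 arrays, at the end of the scale.

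Regulators of the peptide and myosin genes included the 4 factors of the transgene, and whether their features read the transgene, the endogenous genes or both was not tested. Of 32 listed, 30 were measured and none passed in limma. From 12W-Ctrl to 12W-TTg the largest differences were those of Tbx5 (3.07 ± 0.52) and Mef2c (2.24 ± 0.58), with limma adjusted p = 0.646 and 0.650. Hand2 differed by 0.98 ± 0.44, with no overlap, and Gata4 by 0.25 ± 0.31, with overlap (limma adjusted p = 0.678 and 0.897). Tbx5 read 10.72 and 9.31 in 12W-TTg and 6.42 and 7.47 in 12W-Ctrl. TTg replicate 1 had the higher Tbx5 and Mef2c signal of the pair and also the higher Nppb and Myh7 signal. Dio2, the enzyme that makes active thyroid hormone inside cells, read 6.12 and 5.36 in 8W-Ctrl, 8.14 and 6.71 in 12W-Ctrl, and 7.02 and 4.88 in 12W-TTg. Thyroid hormone is known to favour Myh6 over Myh7. Both the Dio2 mean (7.43) and the mean Myh7 minus Myh6 balance (−0.72) were highest in 12W-Ctrl, and a link between them was not tested. Dio2 differed by −1.48 ± 0.74 between 12W-TTg and 12W-Ctrl and by 1.68 ± 0.74 between the control times (limma adjusted p = 0.705 and 0.635). Tbx3 and Tbx20, T-box genes of the heart, had 3-month control means above those at 2 months by 1.66 ± 0.28 and 1.63 ± 0.35 (limma adjusted p = 0.396 and 0.406).

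Other fetal and stress genes of the ventricle were taken from a list of 12. All 12 were measured, and all 12 means were lower in 12W-TTg than in 12W-Ctrl, with a median of −1.15 against 0.01 for all features. Groups did not overlap for 11 of the 12, where 19.3% of features did so in that direction, yet none passed in limma. The list was chosen with earlier results of these data known, so its counts and medians are a description and not a test. Between the control times 9 of the 12 means were higher at 3 months (median 0.98), and from 8W-Ctrl to 12W-TTg 5 were higher and 7 lower (median −0.53). Acta1, the skeletal actin of the fetal heart, read 17.13 and 15.97 in 8W-Ctrl, 18.57 and 19.30 in 12W-Ctrl, and 16.72 and 12.78 in 12W-TTg. The value of 19.30 is above 19, where differences can be compressed. The part of the skeletal muscle signal of 8W-Ctrl replicate 1 in its Acta1 value was not tested. Tnni1 of the same list read 6.34 in that heart and 3.05 in 8W-Ctrl replicate 2. Rcan1, a target and inhibitor of calcineurin, and Xirp2, a protein of the intercalated disc, had the next largest differences from 12W-Ctrl, −2.85 ± 1.10 and −2.21 ± 0.50 (limma adjusted p = 0.661 and 0.646). Rcan1 was at 11.92 and 10.49 in 8W-Ctrl, 16.13 and 14.15 in 12W-Ctrl, and 13.92 and 10.66 in 12W-TTg. As for Nppb, Myh7 and Nppa, the lowest value of Acta1 was in TTg replicate 2.

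**Figure D5:**
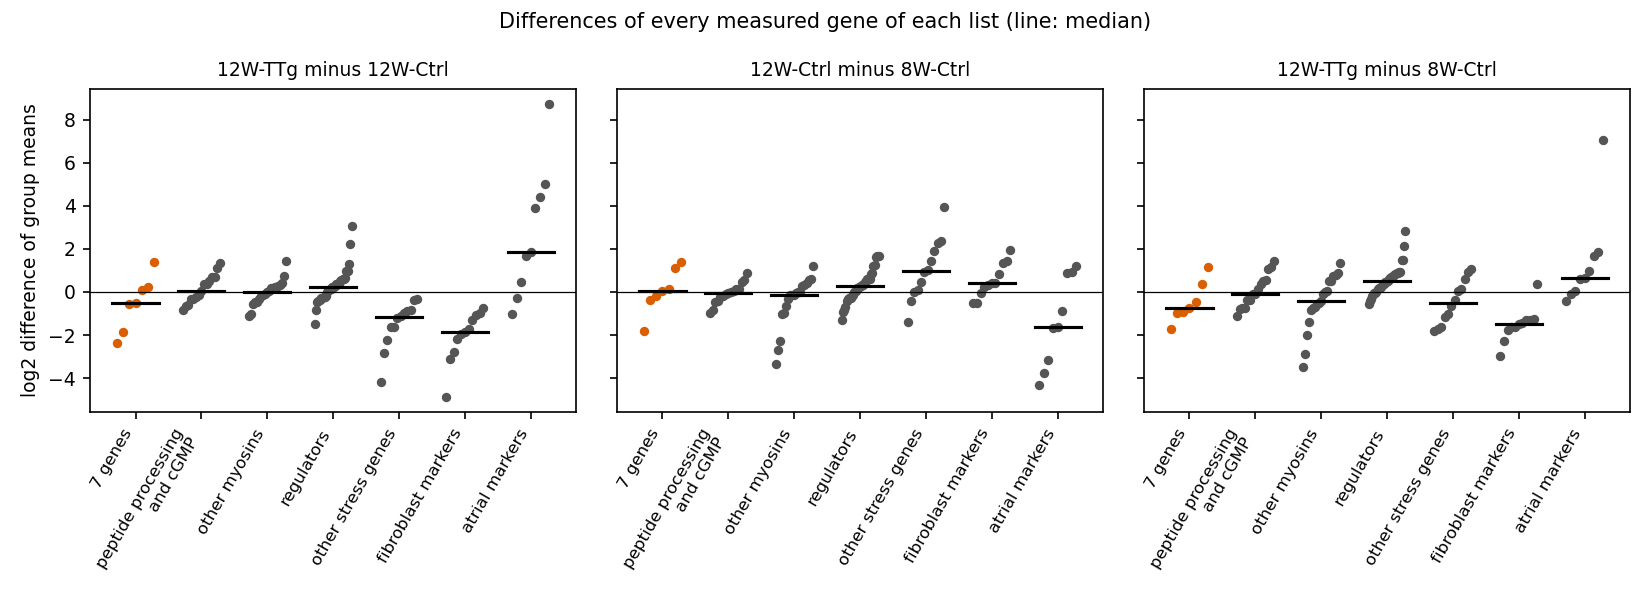
Log2 differences of group means (y axis) of every measured gene of 7 lists (x axis) in the 3 comparisons, with the 7 genes described here in orange and a line at each median. The other stress genes and the fibroblast markers are all below 0 for 12W-TTg minus 12W-Ctrl, and the peptide pathway genes lie around 0 in each panel. The lists were chosen with earlier results of these data known.

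Profiles over the 6 hearts were compared by the root mean square of the difference between mean-centred log2 values, in log2 units, over 13843 other features that had 1 symbol and were not dim. The 3 profiles closest to Nppb were those of Cilp at a distance of 0.24, Postn at 0.55 and Meox1 at 0.64, where the median feature lay at 1.64. Cilp and Postn encode matrix proteins of activated fibroblasts and Meox1 a transcription factor of the same cells. Cilp read 8.68 and 6.77 in 8W-Ctrl, 10.15 and 8.03 in 12W-Ctrl, and 8.29 and 4.33 in 12W-TTg. By the same measure Nppb was 1.15 from Myh7 and 1.33 from Nppa, whose range the ceiling limits. The closest profiles to Myh7 were St3gal5, a ganglioside synthase (0.42), Ankrd1, a stress protein of the sarcomere (0.48), and the matrix gene Ltbp2 (0.48). Ankrd1 read 19 or more on 4 of the 6 arrays, where differences can be compressed.

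Corin was closest to Hectd4 (0.19), Phka2, a subunit of phosphorylase kinase (0.21), and Pdp2, a phosphatase that activates pyruvate dehydrogenase (0.22), with a median of 0.85. Npr3 was closest to 2900060B14Rik (0.20), the sterol hydroxylase gene Cyp27a1 (0.29) and Glt8d2 (0.31), with a median of 0.96. Cyp27a1 read 8.79 and 8.95 in 8W-Ctrl, 7.65 and 7.18 in 12W-Ctrl, and 7.13 and 6.89 in 12W-TTg, the same split by time as Npr3. Nppa, Myh6 and Npr1 varied by a root mean square of 0.36, 0.28 and 0.53 around their own means. Tor4a (0.06), Ogfod2 (0.08) and Thoc1 (0.10) were closest to Nppa, and Dcaf11 (0.04), Zbtb44 (0.04) and Scmh1 (0.06) to Myh6. Pgrmc1 (0.08), Wdr44 (0.09) and Tmem53 (0.10) were closest to Npr1. These distances describe 6 hearts and carry no test.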

How the data were processed

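Expression in whole hearts of 6 mice was measured on Clariom S mouse arrays, 1 per heart, from 100 ng of RNA with an integrity number above 7.0, per the labels' protocols. The values are log2 signals per feature as the authors deposited them. The submitters' processing notes name the software TAC 4.0. The summary, background and between-array normalization are not given in the sources used here, and no further normalization was applied. Titles gave the groups and replicate numbers, and per the labels the 2 hearts of a group are independent. The titles read 8W and 12W, and the tissue label gives 2 and 3 months after infarction.

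Features were named through the platform annotation (19572 with a symbol, 2634 without), and a repeated symbol took the feature with the highest mean. A limma 3.58.1 model (R 4.3.3) had 1 coefficient per group (3 residual and 4.13 prior degrees of freedom), two-sided, with an adjusted p threshold of 0.05. The number of arrays limits the precision. The Myh7 minus Myh6 difference was tested by exact permutation of hearts in Python 3.11.15. The fit was tested on simulated data. The genes, lists and tests were chosen with earlier results of these data known. Named genes were the 7 genes, for each list and comparison the passing members or, with none, the 3 largest differences that were not dim, and the 3 closest profiles of each gene. Values of marker genes, list profiles over hearts and the ceiling were added beside results after they were seen.

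Tried alternatives were leaving out each array, a replicate block, the 2 groups alone, no feature under the dim limit, only features below 19 or with 1 symbol, median or quantile scaling, the mean over features of a symbol, and limma's trend and robust options.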

Additional observations from a re-analysis of the deposited data

How the results depend on the processing

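None of the 7 genes passed in limma under any of 330 alternative fits, and 15 of their 21 differences turned to the other sign in none of them. The 15 include Nppa differences that fell to 0.00, between saturated values. These were the control times without 12W-Ctrl replicate 1, and 12W-TTg against 8W-Ctrl without TTg replicate 2. The other 6 of the 21 differences turned, all with 1 heart left out. With hearts left out, Nppb ran from −2.78 to 0.83 and Myh7 from −1.64 to 0.12 in 12W-TTg against 8W-Ctrl, and between the control times Myh6 ran from −0.21 to 0.46, Corin from −0.97 to 0.54 and Npr1 from −0.92 to 0.15. Npr3 ran from −0.38 to 0.52 in 12W-TTg against 12W-Ctrl. The turned values were those of Nppb in 12W-TTg against 8W-Ctrl (0.83) and Myh7 in the same comparison (0.12) without TTg replicate 2. Between the control times, Myh6 turned without 8W-Ctrl replicate 1 (−0.21) and 12W-Ctrl replicate 2 (−0.08), Corin without 8W-Ctrl replicate 2 (0.54) and 12W-Ctrl replicate 1 (0.30), and Npr1 without 8W-Ctrl replicate 1 (0.15). Npr3 in 12W-TTg against 12W-Ctrl turned without 12W-Ctrl replicate 2 (−0.38) and TTg replicate 1 (−0.29). The cause was not tested. Nppa and Myh6 drop out of the fit limited to features below 19.

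The count of features past the threshold in 12W-TTg against 12W-Ctrl was 1, and it was 2 with the 2 groups alone, 11 with the replicate block and 0 to 2 with single hearts left out. Between the control times it was 1, and it was 0 with the intensity trend, with quantile normalization and without dim features, and 0 to 6 with hearts left out. For 12W-TTg against 8W-Ctrl it was 0, with 1 under the robust prior and with features below 19, 5 with the replicate block and 0 to 22 with hearts left out. Same-numbered hearts of different groups had correlations of 0.120 to 0.136 between their deviations from the group means, and no label pairs them. The replicate block left the Myh7 minus Myh6 differences at −2.10, 0.96 and −1.15 and called none of the 7 genes. It brought the SE of the Nppb differences from 1.20 to 0.45, with limma adjusted p = 0.181 for 12W-TTg against 12W-Ctrl, 0.423 between the control times and 0.475 for 12W-TTg against 8W-Ctrl. Differences of features at the ceiling, such as Nppa, are limited by the signal scale. Leaving out 1 heart for 4 other myosin genes was chosen after seeing the data. The Mybphl difference of 12W-TTg from 12W-Ctrl was −0.18 without 12W-Ctrl replicate 2, and without 8W-Ctrl replicate 1 the differences from 8W-Ctrl were 0.22 and 0.08 for Myh2 and 0.12 and −0.05 for Myh8.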
